A study of Mus musculus with 14 samples.

Results

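The regions described here are all those that the authors listed as differing in chromatin accessibility between 2 kinds of Ezh2 knockout (KO), made with Tie2-Cre or with Vav-Cre, in mouse yolk sac erythro-myeloid progenitors. A region is a stretch of the genome given by chromosome, start and end, and 4433 distinct regions were listed, of 9954 in the 3 comparisons of the series counted separately. The assay was ATAC-seq: the transposase Tn5 inserts adapters into open DNA, and the density of inserts reports how open a region is. The Tie2 KO group held 5 samples of genotype Ezh2 fl/fl; Tie2-Cre Tg/+ and the Vav KO group held 3 samples of genotype Ezh2 fl/fl; Vav-Cre Tg/+. Values are also given from the lists that set each KO against Tie2 wild type (WT), which held 3 samples of genotype Ezh2 fl/fl; Tie2-Cre +/+. All groups carried floxed Ezh2, were labelled as strain C57BL/6 and were collected at stage E10.5, with 500 sorted cells per sample. The series also holds 3 Vav WT samples, which enter none of these lists. The sex of the embryos, the litters and the sorting markers were not stated in the labels, and the line, the driver and any difference in when or how fully Ezh2 was lost cannot be told apart in this design.

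Ezh2 is the enzyme of Polycomb repressive complex 2 (PRC2). It places methyl groups on lysine 27 of histone H3, a mark that keeps many developmental regulators silent in cells that do not use them. Erythro-myeloid progenitors arise from specialised endothelium of the yolk sac and give rise to red cells, megakaryocytes, mast cells and macrophages before blood stem cells take over. Tie2, encoded by Tek, is a receptor of endothelial cells, so Tie2-Cre acts in endothelium and in the blood cells that come from it, whereas Vav1 is expressed through the blood lineage and Vav-Cre acts in blood cells.

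Each region carries 1 log2 fold change (Tie2 KO over Vav KO, so that positive means more open in Tie2 KO) and 1 adjusted p-value, both taken from the authors' deposited table, as is every fold change and adjusted p below. The files hold no value per sample, so the spread between embryos cannot be shown. The adjusted p is the result of the authors' test and does not measure that spread. Every listed region covered a gene start or lay within 5 kb upstream of one, and the gene paired with a region is the gene of that start. The word beside below means this pairing and says nothing on expression. In pools of sorted cells, a change in the share of a cell type and a change in accessibility per cell cannot be told apart.

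The genes of the miR-9, miR-196 and miR-10 families, each with a seed of its own, were paired with more open regions at every one of their loci. Their mature sequences are shown because miR-196 and miR-10 genes lie within the Hox clusters described below. Families listed in both directions, such as let-7 and miR-26, are not shown. Sequences are from RefSeq on GRCm38.p6, written 5′ to 3′, with the seed (bases 2 to 8) in capitals.
miR-9-5p: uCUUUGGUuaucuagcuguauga
miR-196a-5p: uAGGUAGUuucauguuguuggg
miR-196b-5p: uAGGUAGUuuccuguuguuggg
miR-10a-5p: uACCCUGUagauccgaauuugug
miR-10b-5p: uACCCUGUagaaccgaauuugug
miR-148b-3p: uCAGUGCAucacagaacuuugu
The last of these, miR-148b, is shown as the microRNA whose region was lower with the smallest adjusted p.

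Promoter windows, from 250 bp before to 50 bp after the start, are shown for 3 homeobox genes whose start lay inside a region more open in Tie2 KO and for 2 protein-coding genes whose start lay inside a region less open there. Capitals mark CG, the dinucleotide that is dense in the promoters PRC2 is known to bind.
Hoxd10, chr2:74691641-74691940, + strand: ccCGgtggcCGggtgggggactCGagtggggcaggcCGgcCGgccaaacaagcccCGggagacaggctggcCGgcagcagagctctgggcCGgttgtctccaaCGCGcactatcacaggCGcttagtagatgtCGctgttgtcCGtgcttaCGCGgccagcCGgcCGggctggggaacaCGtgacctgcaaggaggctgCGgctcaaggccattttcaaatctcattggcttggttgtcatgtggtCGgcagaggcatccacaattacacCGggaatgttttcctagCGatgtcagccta
Lmx1a, chr1:167689308-167689607, + strand: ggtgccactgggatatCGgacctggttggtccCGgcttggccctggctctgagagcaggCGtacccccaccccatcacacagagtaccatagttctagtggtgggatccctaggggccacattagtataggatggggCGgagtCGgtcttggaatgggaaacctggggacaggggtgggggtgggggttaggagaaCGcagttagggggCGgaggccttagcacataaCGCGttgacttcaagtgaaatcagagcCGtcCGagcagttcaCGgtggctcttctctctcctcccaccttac
Dbx2, chr15:95654722-95655021, - strand: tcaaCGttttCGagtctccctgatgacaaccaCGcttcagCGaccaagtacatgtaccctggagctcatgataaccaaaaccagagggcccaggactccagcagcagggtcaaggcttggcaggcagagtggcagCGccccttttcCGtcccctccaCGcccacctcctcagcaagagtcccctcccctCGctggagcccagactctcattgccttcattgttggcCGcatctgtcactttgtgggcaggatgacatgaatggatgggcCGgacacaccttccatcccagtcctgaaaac
Lcn10, chr2:25682476-25682775, + strand: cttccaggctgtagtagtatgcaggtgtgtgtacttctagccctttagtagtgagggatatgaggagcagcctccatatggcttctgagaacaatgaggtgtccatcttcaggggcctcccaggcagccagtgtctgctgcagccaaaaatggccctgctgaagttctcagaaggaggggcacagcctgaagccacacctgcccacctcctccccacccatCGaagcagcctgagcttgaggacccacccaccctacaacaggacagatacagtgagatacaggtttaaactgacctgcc
1700020D05Rik, chr19:5503738-5504037, - strand: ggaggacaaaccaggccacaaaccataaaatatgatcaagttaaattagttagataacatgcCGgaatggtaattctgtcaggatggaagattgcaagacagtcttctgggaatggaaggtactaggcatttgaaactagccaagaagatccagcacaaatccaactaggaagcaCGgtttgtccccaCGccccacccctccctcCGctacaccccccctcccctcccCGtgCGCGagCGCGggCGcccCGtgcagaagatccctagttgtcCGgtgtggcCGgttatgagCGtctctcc
The Hoxd10 window held 22 CG and the Lmx1a and Dbx2 windows held 12 and 10. The Lcn10 window held 1 CG and the 1700020D05Rik window 14. Over all 32851 windows of the table the median was 7, with quartiles of 3 and 20, so the Hoxd10 window lay above the upper quartile, the Lcn10 window below the lower one and the other 3 between them. These 5 windows are examples and carry no test.

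Regions more open in Tie2 KO outnumbered those less open. Of the 4433 regions, 2873 (64.8%) were higher in Tie2 KO and 1560 (35.2%) were lower. The median region was 2.23-fold higher or 2.17-fold lower in the authors' deposited table, so the directions differed in number more than in size. Higher regions ran from a log2 fold change of 0.59 to 5.17, with quartiles of 0.88, 1.16 and 1.5, and lower regions from -0.58 to -4.55, with quartiles of -0.84, -1.12 and -1.48. A change of 4-fold or more was listed for 246 higher regions (8.56%) and 118 lower regions (7.56%). The median adjusted p was 8.97e-05 for higher and 0.000142 for lower regions.

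The directions also differed in position. A gene start was covered by 1258 higher regions (43.8%) and by 187 lower regions (11.99%). At the far end, 623 lower regions (39.9%) lay 2501 to 5000 bp from the start, against 466 higher regions (16.2%). The share of all regions that were higher fell from 87.1% over the start to 67.6% within 500 bp, 64.5% at 501 to 1000 bp, 53.9% at 1001 to 2500 bp and 42.8% at 2501 to 5000 bp. Fold changes were smallest at the start in both directions, with medians of 1.03 and -0.85 there and of 1.34 and -1.22 in the farthest class. Which regions the authors tested is not given, so these shares have no test.

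**Figure D1:**
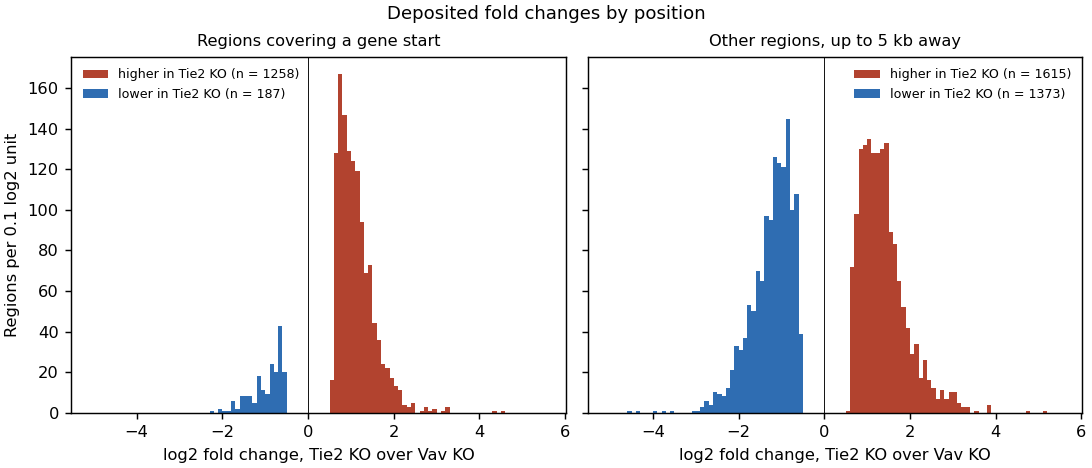
Deposited log2 fold changes (Tie2 KO over Vav KO) as counts of regions per 0.1 log2 unit, for regions covering a gene start (left) and other regions up to 5 kb upstream (right), higher in red and lower in blue. Over gene starts 1258 regions were higher and 187 lower, and away from them 1615 were higher and 1373 lower; no listed value lies near 0 because only called regions are in the lists.

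Higher regions were also wider. Their median width was 1299 bp against 1099 bp for lower regions, on a grid whose smallest width was 999 bp. Of the regions of 3099 bp or more, 158 were higher and 5 lower, and 90.5% of those 158 covered a gene start. At the smallest width the directions were closer, with 801 higher and 622 lower regions. Even there a start was covered by 19.5% of higher and 9.49% of lower regions, so the difference in position was present within that width, at a smaller size.

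**Figure D2:**
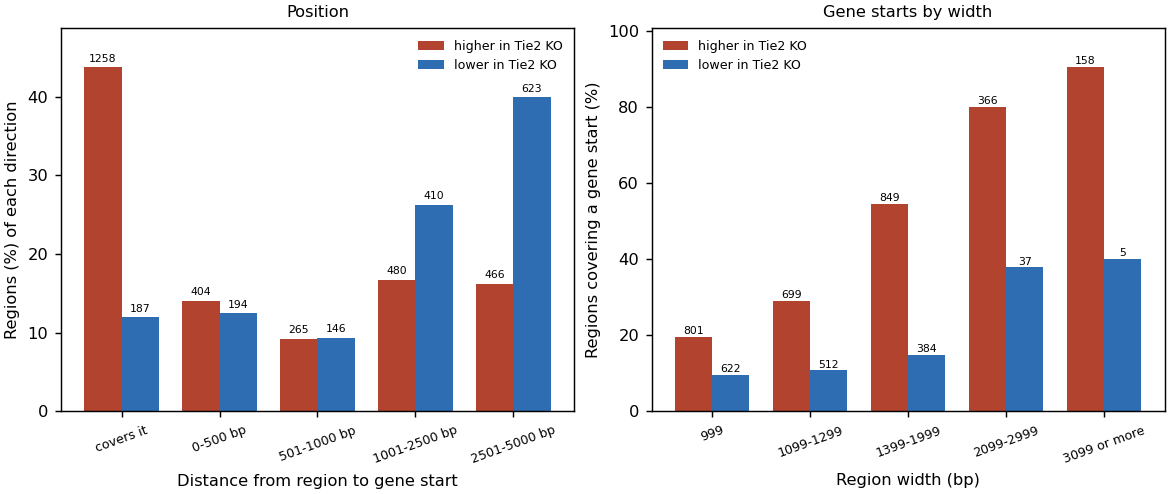
Left, the percentage of higher (red) and lower (blue) regions in each class of distance to the gene start, with the number of regions above each bar. Right, the percentage of regions that cover a gene start in each class of width, with the number of regions in the class; it rises with width from 19.5% to 90.5% in higher regions and from 9.49% to 40% in lower regions, where the widest class holds 5.

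Genes of the developmental transcription factor families were paired with more open regions more often than protein-coding genes as a whole. Of 248 such genes, 166 (66.9%) lay beside a higher region and 5 beside a lower one, against 11.1% and 6.35% of all 21900 protein-coding genes. Their median log2 fold change was 1.33, against 1.16 over all protein-coding genes beside a higher region. The 5 beside a lower region were Foxk1, Foxk2, Foxc2, Foxe3 and Tbx1, of which Foxe3 and Tbx1 also lay beside a higher region. A gene start was covered by 101 of their 225 higher regions, a share (44.9%) close to that of all higher regions. These counts say how often a family was met and were not tested against other genes. Counts of a family depend on the size of change asked for: over all genes, a log2 fold change of at least 1 in size left 1853 of 2873 higher and 941 of 1560 lower regions. Below, the main family counts that dropped by more than 1.5 times under it are given.

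Hox genes, which give cells their position along the body axis, were beside higher regions in 30 of 39 cases and beside lower regions in none. All 10 genes of the HoxB cluster were among them, with 8 of 11 in HoxA, 7 of 9 in HoxC and 5 of 9 in HoxD. The authors' deposited table gave Hoxc6 a log2 fold change of 3.09 (adjusted p 4.64e-05) 3013 bp upstream and of 1.4 (adjusted p 3.94e-06) over its start. Hoxb13 had 2.35 (adjusted p 2.19e-06) upstream and 1.64 over its start, and Hoxd10 had 1.96 (adjusted p 2.56e-06) over the start shown in the window above. For Hoxd10, the Vav KO to Tie2 WT comparison, which shares the Vav KO samples, listed -1.77 over the start and 1.22 at 1590 bp upstream, and the Tie2 KO to Tie2 WT comparison listed 1.53 and 1.11 upstream only.

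Homeobox families of the brain and limb were also listed as higher. Beside higher regions lay 12 of 14 Nkx genes, 10 of 12 LIM homeobox genes, 7 of 9 Dlx and Msx genes, 6 of 9 Pax genes and 16 of 19 other brain patterning homeobox genes, and none of these lay beside a lower region. Irx2, a homeobox factor of heart and neural patterning, had 4.72 (26.4-fold, adjusted p 4.3e-07) at 4996 bp upstream and 2.11 nearer its start in the authors' deposited table. Six6, an eye and pituitary factor, had 3.01 upstream and 1.12 over its start. En1, which patterns the midbrain and limb, had 2.39, and Gsx2, a forebrain factor, had 3 regions at 2.14, 1.7 and 1.52. Lmx1a and Dbx2, whose windows are shown above, had 1.87 and 1.79 over their starts. For Irx2, Six6, Hoxb13 and Hoxc6 the larger of the fold changes lay upstream and the smaller over or nearer the start. Hoxc4 had the reverse order, with 2.16 over its start and 1.44 at 1035 bp upstream.

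Other factor families were met in part. Beside higher regions lay 16 of 23 neural bHLH genes, 12 of 18 POU and Onecut genes, 10 of 17 T-box genes, 10 of 20 Sox genes, 7 of 12 Zic, Gli and Sall genes and 20 of 44 forkhead genes. Pou5f1, the pluripotency factor Oct4, had 2.58 (adjusted p 1.06e-05) at 1431 bp upstream in the authors' deposited table, and Foxj1, a factor of ciliated cells, had 2.45 and 1.73. With a log2 fold change of at least 1, 9 neural bHLH, 5 Sox and 3 Zic, Gli and Sall genes were left. Of 6 Gata factors, Gata2, Gata3, Gata5 and Gata6 were beside higher regions. Gata2, a factor of blood progenitors and mast cells, had 0.92 with an adjusted p of 0.0471. Of 397 Zfp zinc finger genes, a family without a single developmental theme, 26 (6.55%) were beside a higher and 26 beside a lower region, shares close to or under those of all protein-coding genes, and 14 each way were left at a log2 change of at least 1.

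**Figure D3:**
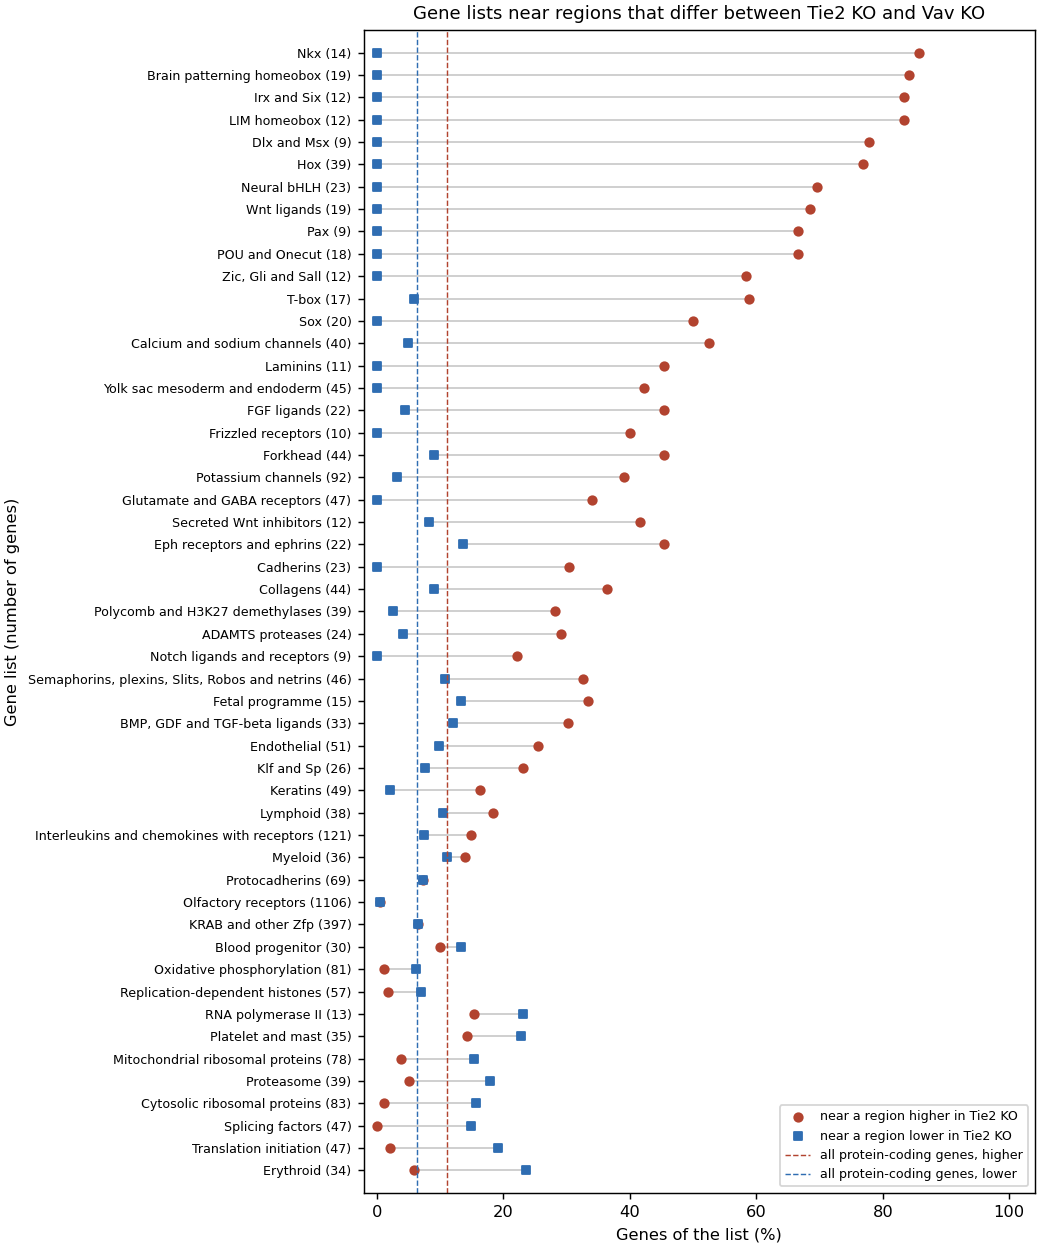
The percentage of genes of each list that lay near a region higher (red circles) or lower (blue squares) in Tie2 KO than in Vav KO, with the number of genes in parentheses; dashed lines mark all protein-coding genes, 11.1% higher and 6.35% lower. Homeobox families lie far to the right for higher regions, and the erythroid, translation initiation, splicing and ribosomal lists have more genes beside lower than beside higher regions.

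Higher regions stood in runs along the homeobox clusters. Joining regions of the same direction with gaps of at most 10 kb gave 66 runs of 3 or more higher regions and 8 runs of 3 or more lower regions, and 26.2% of higher and 14.6% of lower regions had such a neighbour. The longest run, of 13 regions, covered 68099 bp of the HoxB cluster (chr11:96250202-96318300, mm10) from Hoxb9 to Hoxb3 with Mir196a-1 and Mir10a, at log2 fold changes of 0.66 to 2.11. Runs of 6 regions lay over Hoxa3 to Hoxa7 (chr6:52204502-52234100, 0.86 to 1.75), over Hoxc4 to Hoxc6 (chr15:102994402-103020600, 1.29 to 3.09) and over Dlx5 and Dlx6 (chr6:6858802-6886100, 0.7 to 2.43). Wt1, a factor of mesothelium and kidney, had a run of 5 regions (chr2:105120402-105131800), and so had Hoxc9 to Hoxc11. The longest lower run, of 4 regions, lay by Sdf4 and B3galt6 (chr4:155986302-155997200) at -2.06 to -1.01, and others of 3 lay by Rps18 and Rpl14, which encode ribosomal proteins.

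**Figure D4:**
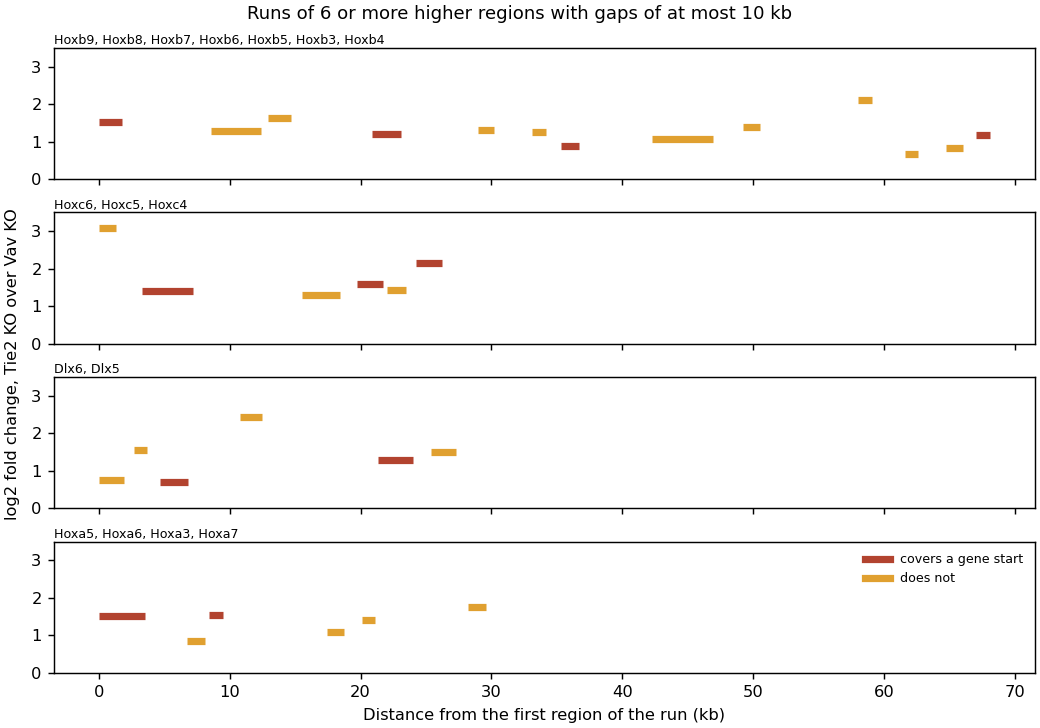
The 4 runs of 6 or more higher regions, each drawn from the start of its first region; bar length is region width in kb and bar height the deposited log2 fold change, red where a gene start is covered and orange where not. Only higher regions are drawn, so every bar lies above 0 by selection. In the HoxB run 13 regions span 68099 bp.

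Mir196a-1, Mir10a, Mir196a-2 and Mir196b lay in these runs of 5 or more regions, and Mir10b and the miR-9 genes did not. The seed CUUUGGU of miR-9, an abundant brain microRNA, is held by 3 genes in the RefSeq table and all 3 lay beside higher regions, Mir9-1 at 0.88, Mir9-2 at 1.74 and Mir9-3 at 1.67 in the authors' deposited table. The seed AGGUAGU of miR-196 is held by 3 genes within Hox clusters, which had 1.29 and 1.64 (Mir196a-1), 1.36 and 1.58 (Mir196a-2) and 1.75 (Mir196b). The seed ACCCUGU of miR-10 is held by Mir10a, with 0.66 and 0.84, and Mir10b, with 1.93. Since Mir196a-1 and Mir10a share the HoxB run, they are not separate cases. Some other genes that share a seed were listed in opposite directions. Mirlet7b had 1.37 and Mirlet7g -1.16 and -1.2, and Mir26b had 1.94 and Mir26a-2 -1.68. As a class, microRNA genes were split evenly, with 77 of 1228 (6.27%) beside a higher and 74 (6.03%) beside a lower region. The start of the microRNA was covered in 19 higher and 11 lower cases. Mir148b had -1.58 with an adjusted p of 1.58e-07, the smallest in the lists, over the whole hairpin. Mir125b-1 had 2.1, and Mir126a, of an endothelial and blood microRNA family, had -0.67.

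Mir193b was listed in both directions, with 1.22 (adjusted p 1.78e-06) at 2322 bp and -1.1 (adjusted p 0.000183) at 4522 bp upstream in the authors' deposited table. The Vav KO to Tie2 WT comparison, which shares the Vav KO samples, listed -1.38 at 2522 bp and 1.51 at 4422 bp upstream. Among other noncoding genes, 29 of 212 opposite-strand genes (13.7%) lay beside a higher and 3 beside a lower region, and 15 were left as higher at a log2 change of at least 1. Gad1os, on the opposite strand of a GABA synthesis gene, had the most regions of any gene, 4 of 0.74 to 2.33. Long noncoding RNA genes lay beside a higher region in 1.88% and beside a lower one in 0.825% of 12731 cases.

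Signalling genes followed in part, led by Wnt ligands. Of 294 ligands, receptors and guidance factors, 87 (29.6%) lay beside a higher and 23 (7.82%) beside a lower region. Over all protein-coding genes the shares were 11.1% and 6.35%. Wnt ligands, secreted factors of patterning and stem cell growth, were beside higher regions in 13 of 19 cases and beside lower regions in none, with Wnt10a at 1.61, Wnt9a at 1.6 and Wnt3a at 1.54 in the authors' deposited table. Their receptors of the Frizzled family were met in 4 of 10 cases, all higher, and 1 was left at a log2 change of at least 1. Of 12 secreted Wnt inhibitors 5 were beside higher regions, among them Dkk1 at 1.92 and 0.75 and Sfrp1 at 1.53 and 0.85, and Dkk4 beside a lower one at -0.73. Lef1, a nuclear partner of the Wnt effector beta-catenin, had 2.2 (adjusted p 1.11e-05) upstream and 1.04 over its start. The ligands and their inhibitors were thus listed in the same direction, apart from Dkk4.

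Growth factors of other pathways were more mixed. FGF ligands were beside higher regions in 10 of 22 and beside a lower one in 1 case. BMP, GDF and TGF-beta ligands were beside higher regions in 10 of 33 and beside lower ones in 4 cases, Tgfb3 having 3.39 (adjusted p 4.97e-06) at 1560 bp upstream and 0.73 over its start, and Tgfb1, Lefty2, Gdf2 and Gdf3 being lower. With a log2 fold change of at least 1, 3 FGF and 5 BMP, GDF and TGF-beta ligands were left as higher and 2 of the latter as lower. Among guidance factors, Slit2 had 2.38 (adjusted p 9.61e-07) and 10 of 22 Eph receptors and ephrins were higher and 3 lower, with 3 left as higher at a log2 change of at least 1. Of the Notch ligands, Jag1 had 2.11 and Dll1 had 1.7, 1.09 and 0.99. Interleukins, chemokines and their receptors, the signals of blood cells themselves, were beside higher regions in 18 of 121 (14.9%) and beside lower ones in 9 (7.44%), shares nearer to those of all protein-coding genes.

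Channel, receptor, collagen, cadherin and laminin genes were listed mainly as higher. Calcium and sodium channel genes were beside higher regions in 21 of 40 (52.5%) and beside lower ones in 2 cases, and potassium channel genes in 36 of 92 (39.1%) and 3 cases. Cacna2d2, a calcium channel subunit, had 3 regions at 2.75, 1.51 and 1.24, and Scn4b, a sodium channel subunit, had 3.12 and 1.39 in the authors' deposited table. Receptors for glutamate and GABA were higher in 16 of 47 and lower in no case. Grik4, a kainate receptor subunit, had 3.5 (11.3-fold, adjusted p 1.05e-06) at 3230 bp upstream, and Vav KO against Tie2 WT listed -3.48 at an overlapping region. Collagen genes were beside higher regions in 16 of 44 and lower ones in 4 cases, cadherins in 7 of 23 and none, and laminins in 5 of 11 and none. Protocadherin genes were split, with 5 of 69 (7.25%) in each direction, against 11.1% higher and 6.35% lower of all protein-coding genes. Asking for a log2 fold change of at least 1 in size left 22 higher and 1 lower for potassium channels, 8 and 4 for collagens and 3 and 0 for laminins. Olfactory receptor genes, which lie in closed clusters, were rarely listed, with 5 of 1106 in each direction.

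Some markers of other yolk sac cells were listed in the same direction as the developmental factors. Of 45 genes that mark yolk sac mesoderm and endoderm, 19 (42.2%) lay beside a higher region, none beside a lower one, and 26 beside neither. Over all protein-coding genes, 11.1% lay beside a higher and 6.35% beside a lower region. Krt19, an epithelial keratin, had 3.82 (adjusted p 2.93e-07) upstream and 1.19 over its start in the authors' deposited table. Twist2, of mesenchyme, had 2.93 and 1.05, Foxa1, of endoderm, had 2.31 and 1.3, and Hand1, of extraembryonic mesoderm, had 2.3 and 1.41. The serum carrier gene Rbp4 had 1.48, the visceral endoderm gene Amn 1.47, Pdgfra 1.48 and 1.26, Cdh1 0.99 and the smooth muscle gene Tagln 0.82. The summed level of these markers in each sample cannot be given from lists of regions, and the part that other cells in the sort play in the counts above was not tested. Taking the larger value of each gene, the list ran from 0.82 to 3.82 and the transcription factors from 0.6 to 4.72. Foxa1, Foxa2, Foxf1, Sox17, Tbx4 and Tbx20 are counted in both.

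Genes of endothelium, in which Tie2-Cre also acts, were listed in both directions. Of 51, 13 (25.5%) lay beside a higher and 5 (9.8%) beside a lower region, against 11.1% and 6.35% of all protein-coding genes. At a log2 change of at least 1 in size, 8 and 3 of them were left. Higher were the VEGF receptor genes Kdr, with 1.18 (adjusted p 4.35e-05), and Flt1, with 0.75, their co-receptor Nrp2, with 2.32, and the apelin receptor gene Aplnr, with 1.35, in the authors' deposited table. Lower were Lyve1, a marker of yolk sac endothelium from which these progenitors arise, with -2.03 (adjusted p 7.73e-07) at 4548 bp upstream, Vwf with -1.53, Angpt2 with -1.39, Icam2 with -0.74 and -0.58, and Rasip1. Tie2 KO against Tie2 WT, which shares the Tie2 KO samples, listed Lyve1 at -0.67 over its start and Icam2 at -0.65. Of the higher genes, Sox7, Sox17 and Sox18 are also counted among the Sox genes, and Ephb4 and Efnb2 among the Eph receptors and ephrins. Vwf is also counted in the platelet and mast cell list.

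The widest higher region and the second widest lower region lay at the genes whose control sequences drive the Cre transgenes. The region at Tek (chr4:94736902-94749200, mm10) was 12299 bp wide and had 2.92 (7.57-fold, adjusted p 0.000921), and Tie2 KO against Tie2 WT listed 2.9 over 12899 bp there in the authors' deposited table. The region at Vav1 (chr17:57277102-57281500) was 4399 bp wide and had -0.9 (adjusted p 3.22e-05), and Vav KO against Tie2 WT listed 0.81 over 2499 bp. Each driver locus was thus listed as higher in the line that carries its transgene. Reads from the transgene and from the gene itself cannot be told apart in these lists, and Tek is counted among the 13 endothelial genes above. Ezh2, the related enzyme gene Ezh1 and the partner genes Eed and Suz12 were in none of the lists, so the deleted gene gives no check of the labels here.

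Polycomb genes other than the PRC2 core were partly listed. Of 39 genes of Polycomb complexes and H3K27 demethylases, 11 (28.2%) lay beside a higher region and Uty, a demethylase relative on the Y chromosome, beside a lower one. Over all protein-coding genes the shares were 11.1% and 6.35%. The PRC2 partner Aebp2 had 1.94 (adjusted p 4.41e-05) at 562 bp and Epop 0.84 at 685 bp upstream in the authors' deposited table, the other 10 of 12 PRC2 genes being absent. Of PRC1, Kdm2b had 1.79, Cbx2 1.56 and Pcgf1 1.11. At a log2 change of at least 1, 4 of the 11 were left. A start was covered by 1 of these 11 regions, against 101 of 225 regions of the developmental factors. Uty had -1.94 (adjusted p 1.99e-05), the only listed region on the Y chromosome, and both comparisons with Tie2 WT listed it as higher, at 0.99 for Tie2 KO and 1.29 for Vav KO. The share of male embryos in each group was not given, and its part in the Uty values was not tested.

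The cell cycle inhibitor gene Cdkn2a, a well known PRC2 target, was listed in both directions. Its start was covered by a region of 1.09 (adjusted p 1.66e-05) and a region 4882 bp upstream had -1.05 (adjusted p 0.000861) in the authors' deposited table, and the other 6 genes of its list were absent. Of 15 genes of the fetal growth and blood programme, 5 (33.3%) lay beside a higher region, against 11.1% of all protein-coding genes. The RNA-binding factors Lin28a and Lin28b, which mark fetal blood, had 1.54 (adjusted p 7.19e-06, over the start) and 1.34, and the growth genes Igf2 and Dlk1 had 1.07 and 0.88. Hmga1 and Hmga2, chromatin proteins that Lin28 is known to raise, lay beside lower regions at -0.64 and -0.66.

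Blood genes were listed in both directions. Over all blood lists 26 of 181 genes (14.4%) lay beside a higher and 28 (15.5%) beside a lower region, against 11.1% and 6.35% of protein-coding genes. Of 30 lower regions at blood genes 14 covered the start, against 11.99% of all lower regions. Of 34 erythroid genes 8 (23.5%) were lower and 2 higher, and 5 of the 8 lower regions covered the start. Ldb1, a partner of Gata1 in red cells, had -1.36 (adjusted p 5.55e-05), the blood group gene Rhd -1.3, Tspo2 -0.88 and the erythropoietin receptor gene Epor -0.58 (adjusted p 0.00967) in the authors' deposited table. The 2 higher were Ank1, at 0.86, and Trim10, at 0.71. With a log2 fold change of at least 1 in size, 2 erythroid genes were left as lower and 0 as higher.

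The platelet and mast cell list was also listed more often as lower, with 8 of 35 genes (22.9%) lower and 5 (14.3%) higher. Of all protein-coding genes 6.35% were lower and 11.1% higher, so the higher share was the nearer to that of all genes. Cpa3, the mast cell carboxypeptidase, had -1.62 (adjusted p 5.48e-05) upstream and -0.89 over its start in the authors' deposited table, and Clec1b, the platelet podoplanin receptor, had -1.53 (adjusted p 1.94e-05) over its start. Treml1, of platelet granules, had -1.05 over its start. At a log2 fold change of at least 1 in size, 5 were left as lower and 1 as higher. Higher were F2rl3 at 1.22, Rab27b at 0.98, Gata2 and Hdc at 0.92 and Gp1bb. For Hdc, Rab27b and Gata2 the Vav KO to Tie2 WT comparison listed -1.29, -1.65 and -1.55, and for Treml1 both comparisons with Tie2 WT listed a lower region, at -1.61 for Tie2 KO and -2.1 for Vav KO.

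Progenitor, myeloid and lymphoid genes were listed in both directions. The share beside a higher region was 10% (progenitor), 13.9% (myeloid) and 18.4% (lymphoid), against 11.1% of all protein-coding genes. The progenitor and myeloid shares were thus close to that of all genes. The share beside a lower region was 13.3%, 11.1% and 10.53% in the same order, against 6.35%. These shares were not tested. Of 30 progenitor genes 4 were lower, with Cd34 at -1.09 and Cd48 at -1.08, and 3 higher, with Gfi1 at 1.42 and Prdm16 at 1.32 and 0.99 in the authors' deposited table. Of 36 myeloid genes 4 were lower, among them the macrophage growth factor receptor gene Csf1r at -1.33 and Mpo at -0.89, and 5 higher, with Cd14 at 2.11 and Irf8 at 1.11. Of 38 lymphoid genes 7 were higher, with Pax5 at 1.91 and 1.24 and the Lef1 values above, and 4 lower, with Rag2 at -1.87. Of these 7, Pax5 and Tbx21 are also counted among the developmental factors and Gata3 among the Gata factors. With a log2 fold change of at least 1 in size, the genes beside lower regions dropped from 4 to 2 (progenitor), 4 to 1 (myeloid) and 4 to 2 (lymphoid).

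Housekeeping genes were listed mainly beside lower regions. Of 445 such genes 60 (13.5%) lay beside a lower and 11 (2.47%) beside a higher region. The start was covered by 4 of the 60 lower regions (6.67%), and few lower regions of any gene covered one (11.99%). Cytosolic ribosomal protein genes were lower in 13 of 83 and higher in 1 case, translation initiation genes in 9 of 47 and 1, splicing factor genes in 7 of 47 and none, proteasome genes in 7 of 39 and 2, and mitochondrial ribosomal protein genes in 12 of 78 and 3. Oxidative phosphorylation genes, lower in 5 of 81 (6.17%), and replication-dependent histone genes, lower in 4 of 57 (7.02%), were close to the 6.35% of all protein-coding genes. With a log2 fold change of at least 1 in size, the lower counts dropped to 6 of each kind of ribosomal protein gene and to 3 for splicing and 3 for the proteasome. Eif5b had -1.9 (adjusted p 0.00012) at 2209 bp, Eif4a1 -1.79 at 1478 bp, Srsf5 -2.03 at 2703 bp, Rpl7a -1.48 at 3706 bp and Rpl12 -1.47 at 1411 bp upstream in the authors' deposited table. Mrps18c, of the mitochondrial ribosome, had -2.74 (adjusted p 7.45e-07) at 4458 bp, and Cox8b, of the respiratory chain, had -1.99 and -1.21. Whether these upstream regions lie by the start of a neighbouring gene that the lists do not pair with them was not tested.

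Among the regions with the largest fold changes, none of the 10 named next was wider than 1699 bp. That limit exceeds both median widths, 1299 bp (higher) and 1099 bp (lower), so it does not set these regions apart. The 8 largest higher changes were led by Dok3, an adaptor of immune cells, at 5.17 (36.0-fold, adjusted p 1.35e-06, 4645 bp upstream), Irx2, Dlg2, a synaptic scaffold, at 4.54 over its start, Plch2 at 4.38 over its start and Ubl5 at 3.88 in the authors' deposited table. The lower changes were led by Chst2, a sulfotransferase, at -4.55 (adjusted p 1.6e-05, 4531 bp upstream), Fam185a at -4.39, Cox16 at -3.94, Sucnr1, the succinate receptor, at -3.73 and Ythdf3, a reader of methylated RNA, at -3.51. Chst2 was listed at 0.59 over its start as well. At the regions of Fam185a, Sucnr1 and Ythdf3, Vav KO against Tie2 WT listed 2.18, 2.3 and 1.94 with the same start and end. The smallest adjusted p, 1.58e-07, was shared by regions at Pla2g3 (2.08), Sugt1 (3.09), Guf1 (-2.66), Amt (-1.13), BC048602 (-1.49) and Mir148b.

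**Figure D5:**
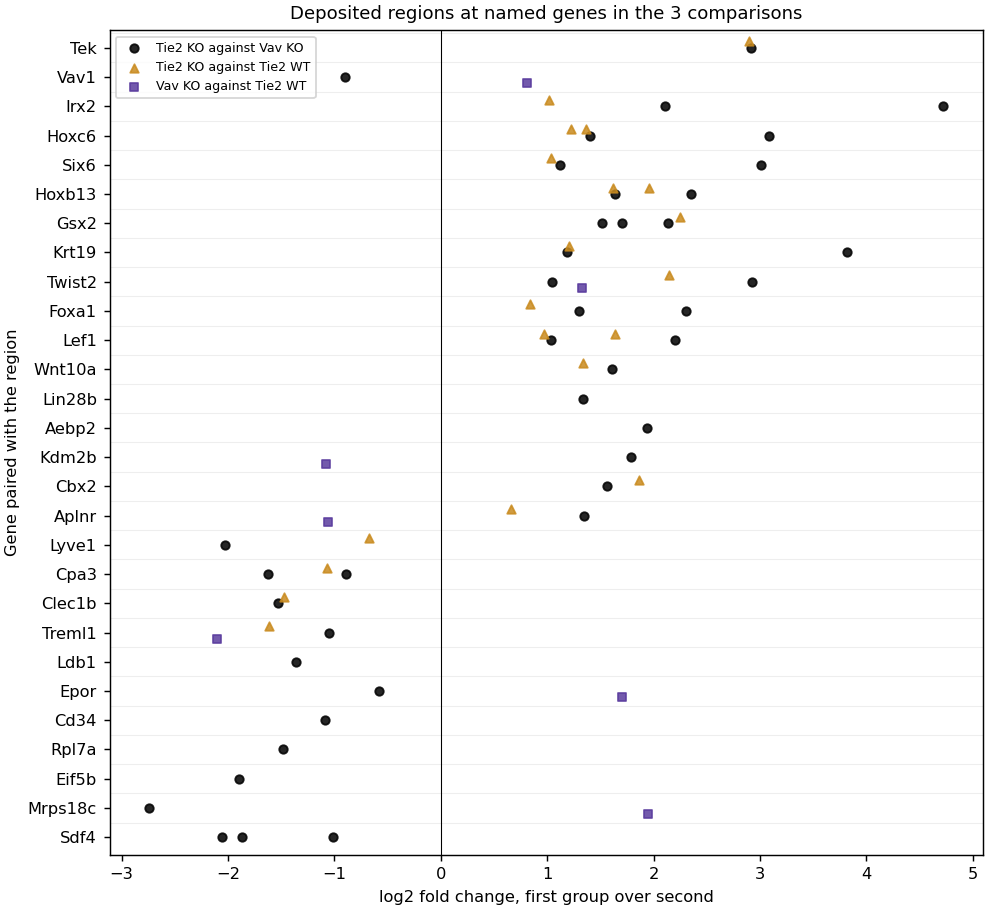
Deposited log2 fold changes (first group over second) of regions paired with 28 genes, chosen after their values were seen, in Tie2 KO against Vav KO (black circles), Tie2 KO against Tie2 WT (orange triangles) and Vav KO against Tie2 WT (purple squares). A gene with no symbol of a kind has no listed region there; the comparisons share samples, and regions of a gene differ in place.

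For genes listed in more than 1 comparison the values are set side by side in the plot of the 3 comparisons, which share samples and so are not separate evidence. The lists called 11.5% of protein-coding genes as higher and 2.51% as lower in Tie2 KO against Tie2 WT, and 5.29% and 2.59% in Vav KO against Tie2 WT. Regions of Hoxc6, Krt19, Foxa1, Lef1, Wnt10a, Cbx2 and Lin28a were listed as higher in Tie2 KO against Tie2 WT too, at 1.22 and 1.37, 1.21, 0.84, 1.64 and 0.97, 1.34, 1.86 and 0.89 in the authors' deposited table. Twist2 was listed as higher in all 3, at 2.15 for Tie2 KO and 1.33 for Vav KO over Tie2 WT. Cpa3 and Clec1b were lower in Tie2 KO against Tie2 WT, at -1.07 and -1.47. Kdm2b was lower in Vav KO against Tie2 WT, at -1.08, and in Epor and Csf1r that comparison listed higher values, 1.7 and 0.92. A gene without a value in a comparison was not called there, which does not show that it was unchanged.

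Some genes lay near regions of both directions. There were 97 of them, of which 38 had a change of at least 1 on the log2 scale each way. In 12 places a higher and a lower region overlapped, by 99 to 499 bp, and in 30 more they lay within 1000 bp of each other without overlap. At Usp19, a deubiquitinase gene, regions of 1.83 (adjusted p 1.43e-05) and -2.55 (adjusted p 3.9e-07) lay 101 bp apart in the authors' deposited table. At Tbx1, a factor of the pharynx and heart, regions of 1.11 and -1.2 overlapped by 199 bp. At Ctgf, a matrix growth factor gene, 1.66 and -1.68 lay 401 bp apart, and at Slc11a1, a metal transporter of macrophages, 2.5 and -1.25 lay 1 bp apart. Regions of the same direction never overlapped.

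Chromosomes differed modestly in direction. The share of regions that were higher ran from 55.3% on the X chromosome, with 42 higher and 34 lower, to 75.2% on chromosome 15, with 176 higher and 58 lower, apart from the Y chromosome with its 1 lower region at Uty. Chromosome 15 carries the HoxC cluster, whose runs hold 11 of these higher regions. Most genes had 1 region. Of the 2755 genes beside higher regions 308 had 2 or more, and of the 1610 beside lower regions 67 had, Sdf4 with 3 being the most.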

How the data were processed

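Assay for transposase-accessible chromatin was run on 14 samples. Per the submitters' processing notes, the build was mm10, and MACS2 2.1.2, HOMER 4.10, SAMtools 1.3.1, Bowtie2, Picard and FastQC were named without a role. Not given in the sources used here were the scaling, the treatment of duplicates, any Tn5 shift and the test. The group abbreviations TKO, VKO and TWT in the lists were read as Tie2 KO, Vav KO and Tie2 WT. Per the file headers, the authors deposited for each region its log2 fold change, its adjusted p-value and, as other measures, its width and distance to the gene in bp.

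Region numbers run to 11423 and 13294, so the lists are part of longer ones. No per-sample value was used, depth is unknown, and no model or test was run. Of 4769 lines, 4764 matched the RefSeq genes (GRCm38.p6), giving 4268 genes. A gene was called when paired with a listed region; 323 regions were paired with 2 or more genes and counted once. Of 146 microRNA genes 131 had a sequence. A set-wide CG comparison was void, since 73.2% of coding genes with a start in a higher region had a promoter entry. Counting was checked on simulated data, with Python 3.11.15 and pandas 2.3.3. Alternatives were a stricter adjusted p or fold change, the smallest width, merged regions and protein-coding genes only.

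Members and lists were chosen with earlier results of these data known. The named genes are Ezh2, Ezh1, Eed, Suz12, Tek and Vav1; per direction the 8 largest changes, 4 smallest adjusted p, 4 widest regions and 4 genes with most regions; genes changed by 1 or more each way; and up to 3 genes per list. Other genes were named after their values were seen, and some genes are not reported here.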

Additional observations from a re-analysis of the deposited data

Results flagged for a closer look

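Of the genes named here, 6 were listed only as higher in Tie2 KO and only as lower in Vav KO when each was set against Tie2 WT, and as higher in Tie2 KO against Vav KO. In the authors' deposited table the larger direct value, the Tie2 KO to Tie2 WT value and the Vav KO to Tie2 WT value were 1.48, 1.17 and -1.57 for Pdgfra, a growth factor receptor gene of mesenchyme, where the last 2 regions overlap over the start. They were 0.98, 0.79 and -1.65 for Rab27b, a granule trafficking gene of platelets, with all 3 regions over the start. For Mir196b, in the HoxA cluster, they were 1.75, 0.83 and -1.25, in regions that overlap upstream. For Foxa2, a factor of endoderm, they were 1.05, 0.82 and -1.53. Tbx4, of hindlimb and allantois, had 1.39, 1.28 and -2.17, with the first and last upstream and the other over the start. Aplnr, the apelin receptor gene, had 1.35 at 3859 bp upstream, 0.66 over the start and -1.06 at 4359 bp upstream. The comparisons share samples, the control is from the Tie2-Cre line for both, and the difference was not tested here beyond the authors' direct call.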

How the results depend on the processing

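The lists hold called regions and no sample values, so no library could be left out and depth limits cannot be given. No paired analysis was possible because the Tie2 KO and Vav KO samples share no replicate number and the lists carry no value per sample. With an absolute log2 fold change of 1 or more, 1853 higher and 941 lower regions were left (66.3% higher), and 36.2% and 7.55% of them covered a gene start. At the smallest width there were 801 and 622 regions (56.3% higher), with 19.5% and 9.49% over a start. Merging regions within 10 kb gave 62.9% higher, with 50.3% of higher runs over a start, and keeping regions of protein-coding genes gave 45.7% of higher regions over a start. In each of these settings more regions were higher than lower and more of the higher ones covered a start. An adjusted p of 0.01 or lower left 2837 and 1529 regions and kept 108 of 110 list counts within 1.5 times, whereas a log2 fold change of 1 or more kept 65. The cause was not tested.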
